A study of Mus musculus with 15 samples.

Results

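The mitochondrial ribosome is built from proteins encoded in the nucleus, made in the cytoplasm and imported into mitochondria. Its genes carry the symbols Mrpl (large subunit) and Mrps (small subunit) followed by a digit. The members were chosen by these symbols, and 76 of the 14392 genes of the expression table carry them, 47 Mrpl and 29 Mrps. The family itself was chosen with earlier results of these data known. Its contrasts with all genes are therefore not those of a set picked without sight of the data. FPKM gives fragments scaled to transcript length and to the mapped reads of the library. Among measured values, the members were selected on FPKM, which had to exceed 1 in at least 1 library for a gene to be listed. All 76 members passed this filter, and of the protein-coding Mrpl and Mrps symbols in the mm9 GENCODE annotation only Mrps36-ps1 had no row.

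RNA was sequenced from C57BL/6 mouse zygotes and 2-cell embryos in 4 groups of 2 libraries, each library pooling 10 embryos. WT embryos came from wild-type mothers. cKO embryos came from Usp16 fl/fl;Gdf9-Cre mothers mated with wild-type males, and the labels write them as Usp16 maternal -/ paternal +. Gdf9-Cre is active in growing oocytes, so these embryos lack the maternal store of USP16, the enzyme that removes ubiquitin from histone H2A at lysine 119, and keep an intact paternal allele. The comparisons ask how the genes changed from the zygote to the 2-cell stage, when the embryonic genome is switched on, and whether that change differed without maternal Usp16. Whether the 2 libraries of a group came from separate matings is not given in the sources used here, so the tests measure the spread between these libraries.

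Mitochondrial ribosomes translate the few proteins that mitochondrial DNA encodes, all of them subunits of the respiratory chain and ATP synthase. Their subunits fall into those with bacterial relatives and those particular to mitochondria. Oocytes carry a very large stock of mitochondria, and embryos before implantation divide without adding to it. A zygote carries mostly messengers made by the oocyte, many of which are degraded by the 2-cell stage.

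The promoters were examined because many members moved in 1 direction between the genotypes at the 2-cell stage. RefSeq (GRCm38.p6) held a window of 300 bases around the start site for 67 of the 76 members. The motif CCGGAAG, bound by ETS factors, stood on either strand in 23 of the 67 (34.3%) and in 16.4% of the 10168 windows of genes in the table. AAGATGG, a form of the YY1 site, stood in 13 (19.4%, against 7.18%), and GCATGCG, the core of the NRF1 site, in 8 (11.9%, against 6.23%). No motif of the 3 contains another, and 35 members (52.2%) held at least 1 of them, against 26.8% of the windows of genes in the table. Over all 27025 RefSeq windows the 3 shares were 9.12%, 6.48% and 3.64%. GGGCGG, the SP factor site, was in 49.3% of member windows against 59.2%, CCAAT in 40.3% against 39.6%, and TATAAA in 5.97% against 8.5%. At least 1 of the 3 stood in 55.6% of 27 windows of members called higher in cKO than in WT 2-cell embryos. The share was 50% in the 40 windows of members without a call. In 60 windows of cytoplasmic ribosomal protein genes it was 56.7%, with CCGGAAG in 40%, AAGATGG in 13.3% and GCATGCG in 6.67%. A link between motifs and the difference between genotypes was not tested. Such matches describe letters, not occupied sites.

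Windows are shown for 4 members whose values are described later. Mrpl49 (chr19:6057706-6058005, minus strand) went from the floor of the table in WT zygotes to a high level at the 2-cell stage. Mrpl3 (chr9:105053018-105053317, plus strand), Mrps12 (chr7:28741772-28742071, minus strand) and Mrps24 (chr11:5707652-5707951, minus strand) were among the members whose change differed between the genotypes. Capitals mark the 3 motifs named first.
Mrpl49: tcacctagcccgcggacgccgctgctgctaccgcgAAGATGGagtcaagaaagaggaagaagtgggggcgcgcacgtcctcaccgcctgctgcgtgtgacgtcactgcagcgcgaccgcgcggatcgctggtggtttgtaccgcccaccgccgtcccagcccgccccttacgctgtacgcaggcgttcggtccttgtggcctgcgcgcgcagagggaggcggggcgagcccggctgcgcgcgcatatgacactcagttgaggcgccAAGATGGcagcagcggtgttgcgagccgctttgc
Mrpl3: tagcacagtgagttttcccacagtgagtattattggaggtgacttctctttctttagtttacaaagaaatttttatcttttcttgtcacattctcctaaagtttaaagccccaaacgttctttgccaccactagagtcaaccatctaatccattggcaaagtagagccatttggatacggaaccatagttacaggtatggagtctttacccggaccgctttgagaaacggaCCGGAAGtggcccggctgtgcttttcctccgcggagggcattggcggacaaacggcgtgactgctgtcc
Mrps12: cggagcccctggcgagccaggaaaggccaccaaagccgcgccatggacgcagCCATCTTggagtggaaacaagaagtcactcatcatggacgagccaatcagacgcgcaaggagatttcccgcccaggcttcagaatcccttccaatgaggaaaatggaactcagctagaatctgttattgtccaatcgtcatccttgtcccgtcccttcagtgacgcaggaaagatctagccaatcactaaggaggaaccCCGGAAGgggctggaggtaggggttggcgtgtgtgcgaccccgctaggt
Mrps24: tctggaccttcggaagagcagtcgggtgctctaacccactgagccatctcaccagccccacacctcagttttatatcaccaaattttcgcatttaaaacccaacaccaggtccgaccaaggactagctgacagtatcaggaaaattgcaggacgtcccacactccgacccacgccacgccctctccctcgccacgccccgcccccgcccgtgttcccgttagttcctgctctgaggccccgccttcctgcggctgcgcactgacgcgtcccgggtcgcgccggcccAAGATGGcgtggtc
Mrpl49 held AAGATGG at 2 positions, Mrps12 held CCGGAAG and the reverse complement of AAGATGG, and Mrpl3 and Mrps24 held 1 motif each. The windows of Mrpl11, Mrpl20, Mrpl40 and Mrps31 held none of the 3.

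The deleted gene followed the labels in zygotes. Usp16 was at 184 and 187 FPKM in WT zygotes and at 16.8 and 22.0 in cKO zygotes. At the 2-cell stage it was at 168 and 183 in WT and at 168 and 84.8 in cKO. The summed level of 8 oocyte markers lay between 10204 and 11112 FPKM in all 4 zygote libraries, and 2-cell embryos had 5990 and 4867 (WT) and 1088 and 2572 (cKO), so the sum was lowest in the cKO pair. At the 2-cell stage 5 of the 8 were called lower in cKO than in WT and none higher, and the other 3 did not pass the test, with positive differences for Gdf9 (0.36) and Zp3 (0.53). All 8 of these markers were above the floor in every library. Only 3 of 8 cumulus and granulosa cell markers had a row, with sums from 3 to 28.7 FPKM that came from Cyp19a1 in zygotes, and 4 of 6 sperm markers had one, with sums from 4 to 23.1. The sum of FPKM over all genes was 770989 in cKO 2-cell replicate 2 and 547752 to 593317 in the other 7 libraries. Spearman's rho between replicates over all genes was 0.979 (WT) and 0.984 (cKO) at the zygote stage and 0.963 (WT) and 0.886 (cKO) at the 2-cell stage. Between the 2 cKO 2-cell libraries 11 of 76 members differed by over 3-fold, beside 1912 of all 14392 genes. The other groups had 0 or 1 such members, beside 20 to 199 of all genes.

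The family was well represented in the embryos. The mean over the 8 libraries ran from 3.28 to 229.9 FPKM, with 13 members over 100, 56 from 10 to 100 and 7 under 10. Because FPKM is scaled to transcript length, these levels can be set beside each other. The highest were Mrpl18, Mrpl48, Mrpl20, Mrps21 and Mrps33 and the lowest were Mrpl11, Mrpl19 and Mrps34. Mrpl20 owed its place to its 2-cell values and the other 4 to their zygote values. By group mean, 47 members were highest in cKO 2-cell embryos, 7 in WT 2-cell embryos and 22 in 1 of the zygote groups. The same count was not made over all genes, so it has no background here. At the zygote stage the median member stood at 22.8 and 18.6 FPKM in WT and at 27.1 and 22.5 in cKO. At the 2-cell stage it stood at 37.8 and 29.1 in WT and at 58.6 and 61.1 in cKO. Summed over the family, zygotes held 3839 and 3242 FPKM (WT) and 4148 and 3655 (cKO), and 2-cell embryos held 3812 and 3369 (WT) and 5859 and 7626 (cKO). The sum in WT 2-cell embryos overlapped that in zygotes, and both cKO 2-cell libraries stood above the other 6. As a share of all FPKM of a library the family took 0.581 to 0.699% in those 6 libraries and 1.01 and 0.989% in cKO 2-cell embryos. FPKM is a relative measure, so more messenger of these genes per embryo and less of other messengers cannot be told apart.

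**Figure D1:**
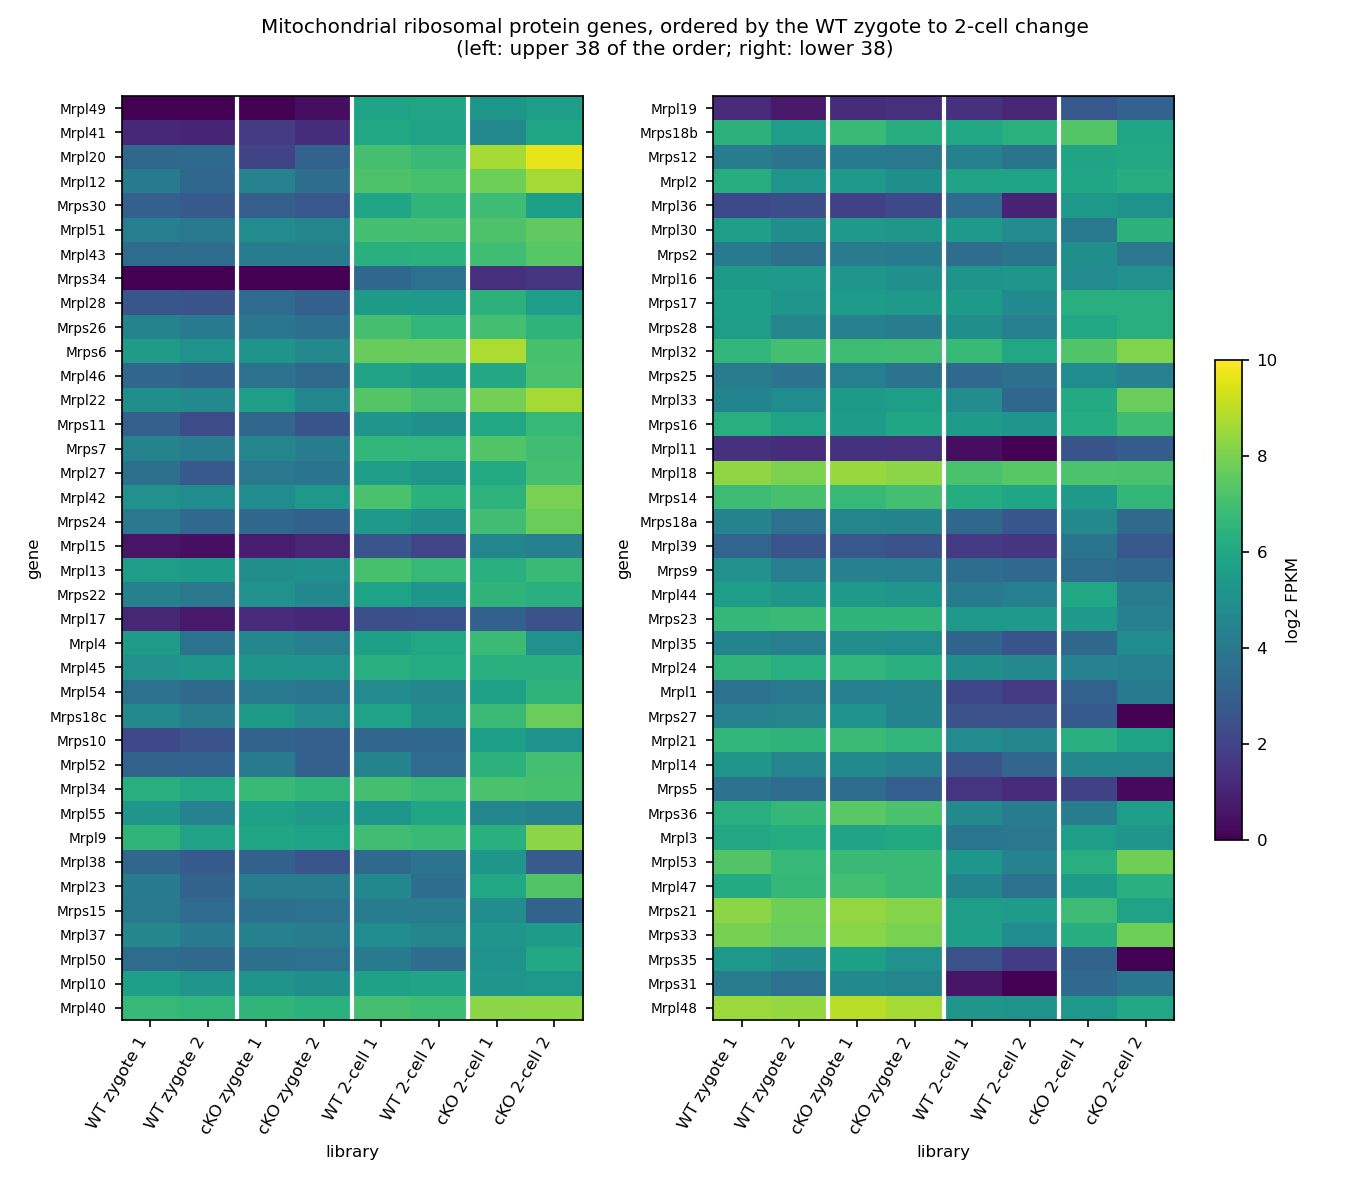
Level of each of the 76 genes (rows) in each of the 8 libraries (columns), as log2 FPKM from 0 (the floor of 1 FPKM) to 10, ordered by the change from WT zygotes to WT 2-cell embryos. Zygote columns match closely between genotypes, and most rows are brighter in the cKO 2-cell columns than in the WT 2-cell columns.

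In WT embryos the family split in both directions between the zygote and the 2-cell stage. limma called 26 members higher and 18 lower at the 2-cell stage, beside 34.2% and 15.5% of all genes. The share of members called higher was thus that of the table (34.2%), and 23.7% were called lower. Among other genes with a mean of at least 10 FPKM the shares were near these, at 34.8% higher and 22.3% lower. The median difference over members was 0.26 in log2(FPKM + 1), against 0.27 over all genes, and its sign depended on scaling. It was -0.02 after median-ratio scaling, with 22 higher and 23 lower, and -0.26 after quantile normalization, with 21 and 27. By the study's fold rule, a ratio of group means over 3, 19 members were higher and 15 lower, beside 26.0% and 8.78% of all genes.

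The 5 members with the smallest adjusted p among those higher in WT 2-cell embryos are all particular to the mitochondrial ribosome. Mrpl49 (mm9 chr19:6053630-6057758, minus strand), a large subunit protein, was listed at the floor of 1 FPKM in both WT zygote libraries and stood at 55.5 and 60.8 at the 2-cell stage. Its ratio of 58.2 is a lower bound, since values under 1 had been set to 1, and its adjusted p was 8.65e-05 by limma. Mrpl41 rose from 2.17 and 2.02 to 63.4 and 53.6 FPKM, a log2 difference of 4.26 ± 0.39 (SE, n = 2 against 2). Both genes thus went from among the scarcest messengers of the family to above its median.

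Mrpl43 rose 7.14-fold and Mrpl51 7.26-fold, each with the libraries of the 2 stages well apart. Mrpl43 was at 11.7 and 11.6 FPKM in zygotes and at 81.9 and 84.1 at the 2-cell stage. Mrpl51 was at 19.6 and 16.4 and then at 130 and 131. Mrps34, a small subunit protein also without a bacterial relative, was listed at the floor in all 4 zygote libraries of both genotypes and was the only member to be so. It reached 10.0 and 13.4 FPKM in WT 2-cell embryos, with a log2 difference of 2.65 ± 0.18.

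Among the members lower at the WT 2-cell stage, 5 had the smallest adjusted p. Mrpl48, a large subunit protein particular to mitochondria, was the most abundant member in zygotes at 364 and 342 FPKM and was at 37.2 and 34.5 at the 2-cell stage, 9.85-fold lower. Mrps31, a mitochondria-specific small subunit protein, was at 18.2 and 13.4 FPKM in zygotes. At the 2-cell stage it was at 1.48 in 1 library and at the floor in the other, so its 12.7-fold fall is a lower bound. Mrpl3, the counterpart of bacterial L3, fell from 65.5 and 72.9 to 15.2 and 16.1 FPKM. Mrpl21 fell from 97.6 and 91.5 to 28.1 and 23.6, and Mrpl24 from 94.5 and 78.3 to 30.7 and 26.4. In each of these 5 genes the zygote libraries all lay above the 2-cell libraries, with adjusted p from 0.000237 to 0.00127 by limma.

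Large and small subunits, and proteins with and without bacterial relatives, were all found on both sides. Of 30 large subunit proteins of bacterial type, 9 were called higher and 8 lower, and of 19 particular to mitochondria 9 and 2. Among small subunit proteins the counts were 5 and 3 of 16 of bacterial type and 3 and 4 of 10 particular to mitochondria. Differences between these classes were not tested. Mrps36, which carries the family's symbol but is a component of the alpha-ketoglutarate dehydrogenase complex, fell from 80.3 and 102 to 26.9 and 18.7 FPKM, with an adjusted p of 0.0132 by limma.

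In cKO embryos more of the family rose. limma called 37 members higher and 12 lower at the 2-cell stage, beside 24.6% and 27.1% of all genes. Thus 48.7% of members were called higher where the table had about as many genes falling as rising. Among other genes with a mean of at least 10 FPKM, 34% were called higher. The share of such genes was 45.4% for transcripts under 1 kb and 40.3% for 1 to 2 kb. It was 34.2% for 2 to 4 kb and 21.1% for those over 4 kb. Members in these length bands, without a cut on level, had 60.9%, 41.4%, 40% and 55.6% called higher. The part of level and length in this rise was not tested. The median difference was 1.06 over members and 0 over all genes. The fold rule gave 33 higher and 7 lower, beside 22.8% and 19.2% of all genes.

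The members with the smallest adjusted p were largely those that rose in WT too. Mrpl49 went from 1.00 and 1.30 to 39.3 and 47.3 FPKM, Mrpl43 from 18.3 and 18.2 to 121 and 168, and Mrpl51 from 28.3 and 23.5 to 148 and 190. Mrpl20, the counterpart of bacterial L20, went from 4.09 and 8.94 FPKM to 404 and 809, with a log2 difference of 6.33 ± 0.43. It was the highest member in cKO 2-cell replicate 2 and came after Mrps6 in replicate 1. In WT it had gone from 10.1 and 10.8 to 131 and 110. Mrpl15, the counterpart of bacterial L15, went from 1.68 and 2.12 to 24.3 and 20.1 in cKO and from 1.45 and 1.33 to 6.16 and 4.23 in WT.

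The 5 members with the smallest adjusted p among those lower in cKO 2-cell embryos were also called lower in WT. Mrpl48 went from 495 and 405 to 39.8 and 62.7 FPKM in cKO, and Mrpl24 from 96.7 and 80.9 to 21.5 and 19.9. Mrpl18, the counterpart of bacterial L18, was at 347 and 311 in cKO zygotes and at 142 and 139 at the 2-cell stage, beside 327 and 262 and then 140 and 171 in WT. Mrps21 fell from 331 and 292 to 117 and 54.8 in cKO and from 304 and 222 to 49.0 and 44.3 in WT. Mrps36 went from 174 and 141 to 18.6 and 48.9 in cKO. In cKO their adjusted p ran from 0.000223 to 0.00597 by limma.

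Set gene by gene, 25 members were called higher in both genotypes and 10 lower in both. Another 11 were called higher in cKO without a call in WT, 7 were called lower in WT without a call in cKO, and Mrpl11 was called lower in WT and higher in cKO. The reverse cases were fewer, with 1 member higher in WT without a call in cKO, 2 lower in cKO without a call in WT, and 19 without a call in either. These joint counts were not made over all genes, so whether they are particular to the family is not known. A call in 1 genotype and none in the other is not itself a difference, and the test of that difference is given further on.

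**Figure D2:**
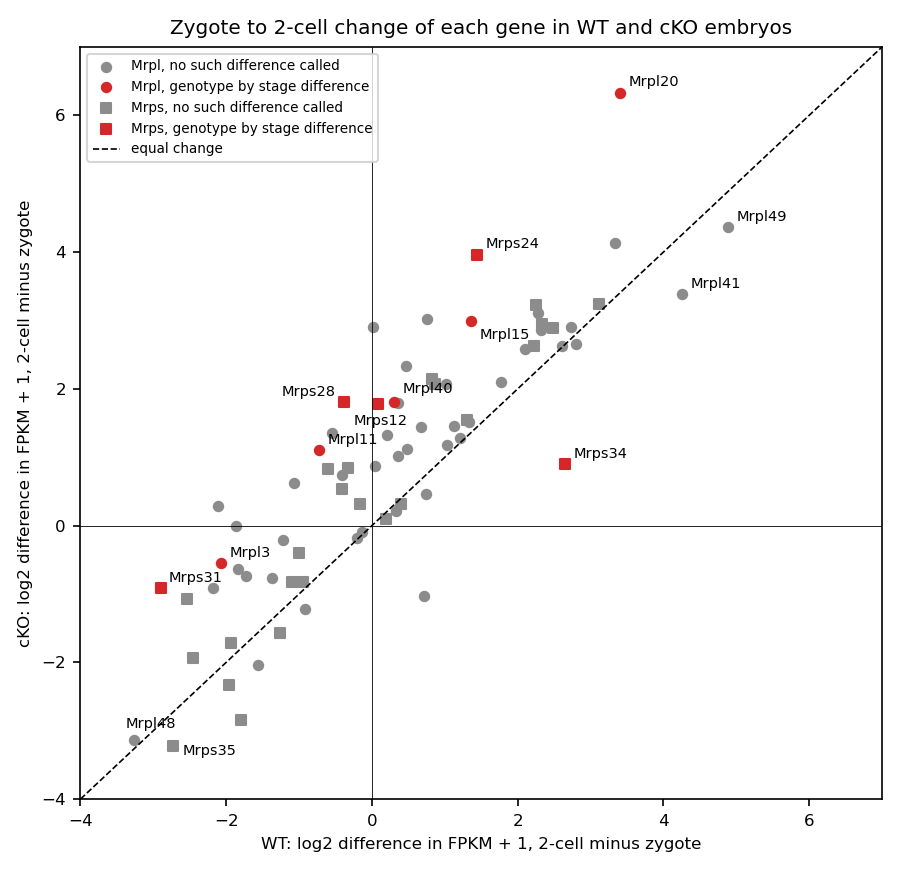
Change from zygote to 2-cell stage in log2(FPKM + 1) for each gene in WT (horizontal) and cKO (vertical). Circles are Mrpl and squares Mrps genes, the dashed line marks equal change, and red marks the 10 genes whose change differed between genotypes, 9 of which lie above the line and Mrps34 below it.

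In zygotes no member passed the test between the genotypes. limma called 0 of 76 members in either direction, beside 0.0208% of all genes higher and 0% lower. The deleted gene Usp16, 9.58-fold lower in cKO zygotes, did not pass either (adjusted p = 0.191 by limma). The lack of calls here therefore does not show equal levels. Unadjusted p-values under 0.05 occurred for 3 members higher in cKO and 0 lower, beside 2.25% and 0.584% of all genes. Both cKO libraries lay above both WT libraries in 25 members and below them in 10, beside 15.8% and 10.2% of all genes. The median difference was 0.13, and the single differences ran from -0.74 to 0.85. By the fold rule 0 members were over 3-fold higher or lower, beside 0.104% and 0.0486% of all genes.

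At the 2-cell stage 31 members were higher in cKO than in WT embryos and 1 was lower. This is 40.8% of the family, beside 6.16% of all genes called higher and 24.6% called lower by limma. The median difference was 0.83 over members and -0.30 over all genes. By the fold rule 20 members were over 3-fold higher and 1 lower, beside 2.84% and 13.5% of all genes. In 48 members both cKO libraries lay above both WT libraries and in 6 both lay below, beside 14.0% and 43.4% of all genes. The direction held under each scaling tried, with member medians of 1.29 after median-ratio scaling (41 higher), 0.97 after quantile normalization (35) and 0.58 after equal-sum scaling (27). The calls rest on the spread pooled over the 4 groups. With a spread of its own for each group 2 members were called higher (Mrpl11 and Mrps31) and Mrps34 lower, and a fit of the 2-cell libraries alone called 0. Without WT 2-cell replicate 2 the count was 11, without WT 2-cell replicate 1 it was 16, and without any 1 zygote library it was 15 to 19. Without cKO 2-cell replicate 1 it was 34 and without cKO 2-cell replicate 2 it was 26.

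**Figure D3:**
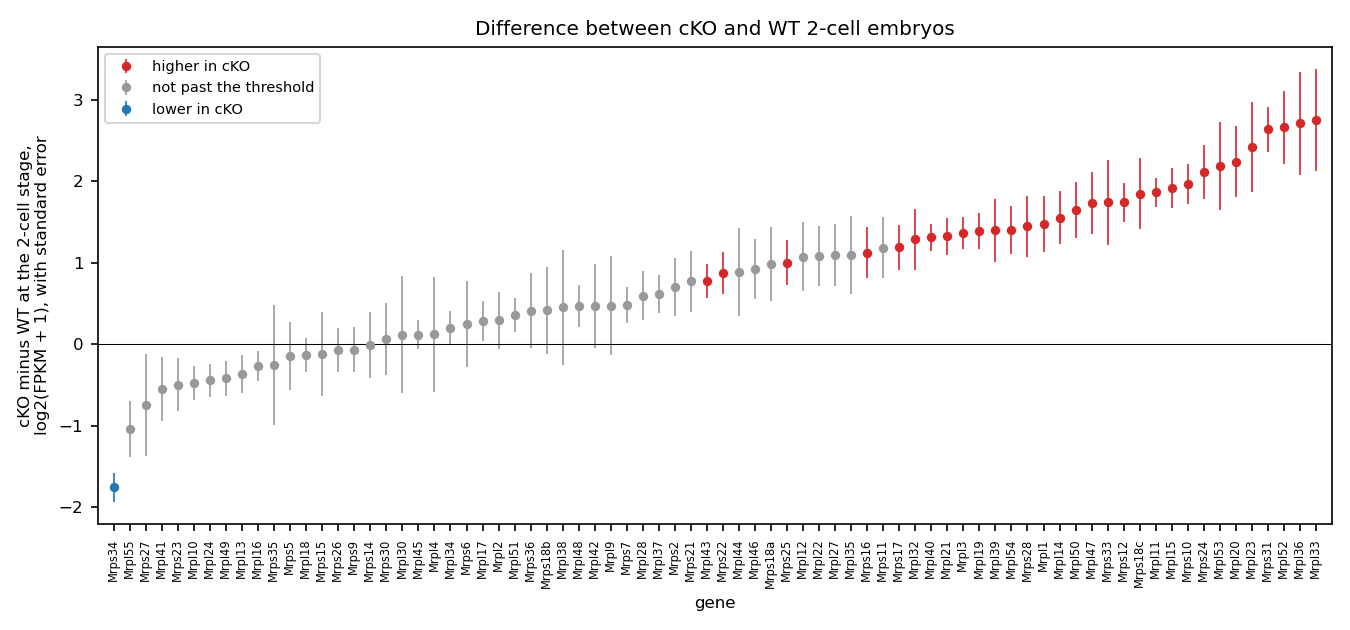
Difference between cKO and WT 2-cell embryos in log2(FPKM + 1) for each of the 76 genes, in order, with the standard error of the limma fit as bars. The 31 genes called higher run up to 2.75, and Mrps34, at -1.76, is the only one called lower.

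Of the 5 members with the smallest adjusted p among those higher, 3 have bacterial relatives and Mrps31 and Mrpl40 do not. Mrpl11, the counterpart of bacterial L11 in the stalk base of the large subunit, was at 1.28 and 1.00 FPKM in WT 2-cell embryos and at 6.11 and 7.48 in cKO, with an adjusted p of 0.00187. Mrps31 was at 1.48 and 1.00 in WT and at 10.8 and 15.3 in cKO. Since 1 WT library of each is at the floor, their ratios of 5.95 and 10.5 are lower bounds.

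Mrps10, the counterpart of bacterial S10, was at 9.89 and 10.1 FPKM in WT and at 49.4 and 35.6 in cKO, a ratio of 4.24. Mrpl15 was at 6.16 and 4.23 in WT and at 24.3 and 20.1 in cKO, a ratio of 4.27. Mrpl40, particular to mitochondria and sharing a start region with Hira, was at 131 and 118 in WT and at 310 and 311 in cKO, a ratio of 2.49. In all 5 genes the 2 cKO libraries lay above both WT libraries, and their adjusted p ran from 0.00187 to 0.00419 by limma.

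Mrps34 went the other way, at 10.0 and 13.4 FPKM in WT and at 2.52 and 2.93 in cKO, a ratio of 4.30 in favour of WT (adjusted p = 0.00237 by limma). Its annotated exons overlap those of Nme3 on the same strand and of Mapk8ip3 on the opposite strand, and the library kit did not keep strand. The same comparison gave -0.96 for Nme3 (adjusted p = 0.234) and -1.02 for Mapk8ip3 (adjusted p = 0.0370), so reads of these genes could not be assigned without doubt. Mrpl49 and Mrpl41, the largest risers in WT, did not pass the test here, with log2 differences of -0.42 ± 0.21 and -0.55 ± 0.39.

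Of the paralogs Mrps18a, Mrps18b and Mrps18c, only the last passed the test at the 2-cell stage. The lists here count Mrps18c as bacterial-type and the other two as particular to mitochondria, with Mrps18a in the large subunit. Mrps18c was at 55.9 and 31.2 FPKM in WT and at 112 and 208 in cKO, with an adjusted p of 0.0236 by limma. Mrps18a was at 10.2 and 6.42 and at 26.1 and 11.0, and Mrps18b at 64.2 and 82.7 and at 162 and 58.7, with adjusted p of 0.158 and 0.587. The 2 cKO libraries of Mrps18a and Mrps18b differed by more than 2-fold from each other. Mrps36 was at 26.9 and 18.7 in WT and at 18.6 and 48.9 in cKO and the groups overlapped.

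Both subunits took part. Of 47 Mrpl genes 20 were higher and 0 lower, with a median of 0.93, and of 29 Mrps genes 11 were higher and 1 lower, with a median of 0.70. Of the 30 large subunit proteins of bacterial type 13 were higher, and of the 19 particular to mitochondria 7. The counts were 7 of 16 and 4 of 10 for the small subunit, where Mrps34 was the 1 called lower.

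The zygote to 2-cell change differed between genotypes in 10 members, 9 with a larger value in cKO and 1 with a smaller one, beside 11.8% of all genes called in either direction. The share of members called (10 of 76) was near that background, whereas the directions were unlike it, since 227 of all genes called had the larger value in cKO and 1474 the smaller one. Mrpl11 differed by 1.83 ± 0.25, Mrps34 by -1.76 ± 0.26, Mrpl40 by 1.50 ± 0.24, Mrpl3 by 1.53 ± 0.28, Mrps24 by 2.52 ± 0.47 and Mrps31 by 1.98 ± 0.39, with adjusted p from 0.0138 to 0.0306 by limma. The others were Mrpl20 at 2.93, Mrpl15 at 1.64, Mrps12 at 1.69 and Mrps28 at 2.19. Leaving out any 1 of the 4 zygote libraries left 0 members called, leaving out WT 2-cell replicate 2 left 6, and leaving out cKO 2-cell replicate 1 or 2 gave 21 and 16.

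These genes came to differ along several routes. Mrpl3 fell from 65.5 and 72.9 to 15.2 and 16.1 FPKM in WT and went from 57.2 and 66.6 to 47.0 and 37.5 in cKO, where its fall did not pass the test. Mrps31 was at 26.5 and 23.9 in cKO zygotes and at 10.8 and 15.3 in cKO 2-cell embryos, a fall of 1.93-fold beside one of at least 12.7-fold in WT. In both genes the WT 2-cell libraries were the low ones of the 8.

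Other members had no call in WT and rose in cKO. Mrpl40 was at 104 and 96.7 in WT zygotes and 131 and 118 in WT 2-cell embryos, and at 92.1 and 83.7 and then 310 and 311 in cKO. Mrps12, the counterpart of bacterial S12, was at 18.2 and 14.2 and then 20.4 and 14.4 in WT, and at 17.6 and 15.8 and then 57.1 and 62.7 in cKO. The libraries of the other 3 groups overlapped in Mrps12, whereas in Mrpl40 they ran from 83.7 to 131 without overlap between groups. In both genes the cKO 2-cell pair stood apart above them.

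Mrps24, the counterpart of bacterial S3, rose in both genotypes, from 15.4 and 10.8 to 42.3 and 32.0 in WT and from 10.4 and 8.67 to 124 and 215 in cKO. Its exons overlap those of Urgcp on the same strand, which differed by -0.65 between cKO and WT 2-cell embryos. Mrps34, at the floor in every zygote library, reached 10.0 and 13.4 in WT and 2.52 and 2.93 in cKO, so its difference between genotypes equals that at the 2-cell stage and depends on zygote values hidden by the floor.

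**Figure D4:**
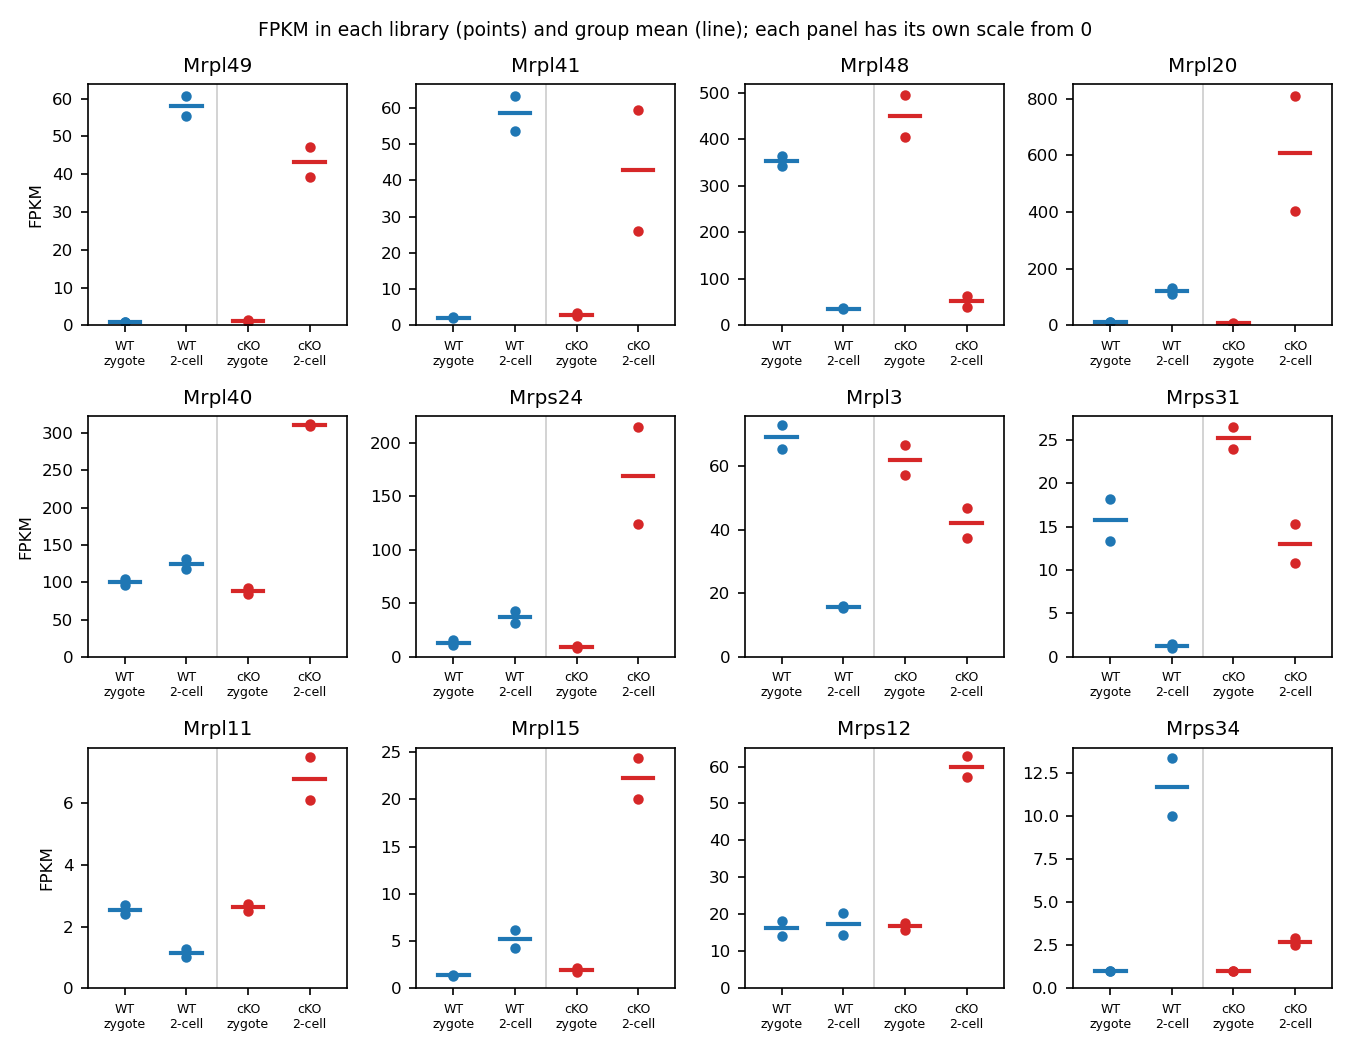
FPKM of 12 genes in each library (points) with the mean of the 2 libraries of a group (lines), WT in blue and cKO in red, each panel on its own scale from 0. Mrpl49 and Mrpl41 rise and Mrpl48 falls in both genotypes, Mrpl20, Mrpl40, Mrps24, Mrpl15 and Mrps12 are highest in cKO 2-cell embryos, Mrpl3 and Mrps31 are lowest in WT 2-cell embryos, and Mrps34 is highest in WT 2-cell embryos.

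Transcript length, level and other markers were set beside the 2-cell result. Members are short, with a median longest transcript of 1300.5 bases against 2807 for all genes with a length (96.6% of the table). Among other genes with a mean of at least 10 FPKM, 10.2% were called higher in cKO 2-cell embryos, with a median difference of -0.34. Split by length, the median of such genes was 0.24 for transcripts under 1 kb (527 genes, 16.5% higher) and -0.17 for 1 to 2 kb (1428 genes, 13.0%). It was -0.38 for 2 to 4 kb (2390 genes, 10.0%) and -0.56 for those over 4 kb (1310 genes, 5.57%). The median of these other genes thus went from positive to increasingly negative with length. Members in the same bands had medians of 1.40 (14 of 23 higher), 0.42 (6 of 29), 1.10 (7 of 15) and 0.47 (4 of 9). The members were not cut on level, so the 7 with a mean under 10 FPKM stay in and the sets are unlike. Mrpl15, Mrpl19 and Mrps5 are such members in the longest band, and Mrpl15 and Mrpl19 were called higher. In every band the member median was above that of the other genes of the band. The summed level of the oocyte markers was at its lowest in the same cKO 2-cell libraries, with 5 of 8 called lower and 2 with a positive difference. Of the 4 markers listed for the 2-cell stage 3 had a row, of which 1 was called higher and 2 lower in cKO. Their sum in 2-cell embryos was 543 and 723 FPKM (WT) and 948 and 742 (cKO). The part of length and of these markers in the result was not tested.

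Near-identical copies and overlapping genes limit single members. A copy elsewhere in the mm9 genome, with at least 90% identity over at least 50% of the transcript, was found for 18 members, up to 7 copies for Mrps36, and 26 members share exon sequence with another annotated gene. Of the 37 members with neither, 10 were higher and 8 lower in WT, 18 and 6 in cKO, and 16 were higher and 0 lower in cKO than in WT at the 2-cell stage, with a median of 0.70 for the last. Among the genes with an interaction, Mrps24 and Mrps34 had an exon overlap and none had a copy. Of others named for their stage change, Mrpl18, Mrpl21, Mrpl24, Mrpl43, Mrpl48 and Mrpl49 had an overlap. Mrpl18, Mrpl21, Mrpl41 and Mrps21 had a copy. Peo1, which overlaps Mrpl43, rose by 2.52 in WT beside 2.73 for Mrpl43. The genes overlapping Mrpl49, Mrpl18, Mrpl21 and Mrpl24 changed by -0.79, 1.42, 0.09 and 0.11 in WT. Members are scattered over 17 chromosomes, and 16 of 76 (21.1%) have the start of a protein-coding gene on the opposite strand within 1 kb upstream, against 10.5% of the 13338 coding genes of the table.

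Other genes of mitochondrial translation were counted from lists of their own. Of 7 mitochondrial ribosomal proteins that carry other symbols, 2 were higher and 0 lower in cKO than in WT 2-cell embryos. Ict1, a peptidyl-tRNA hydrolase built into the large subunit, was at 8.69 and 4.63 FPKM in WT and at 71.0 and 69.4 in cKO, and Gadd45gip1 was at 25.3 and 19.4 and at 76.0 and 67.3. Dap3, a small subunit protein, was at 8.52 and 7.87 in WT and at 5.21 and 5.36 in cKO (adjusted p = 0.0830), having fallen 7.23-fold from WT zygotes. Aurkaip1 rose in WT from 12.9 and 9.34 to 47.8 and 62.6.

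Of 15 mitochondrial translation factors, 4 were higher and 4 lower at the WT 2-cell stage and 1 was higher and 2 lower in cKO than in WT 2-cell embryos. Tufm, the elongation factor that brings tRNA to the ribosome, was at 7.85 and 4.00 FPKM in WT and at 30.1 and 16.6 in cKO. Tsfm, its exchange factor, was at 23.9 and 21.5 in WT and at 6.48 and 9.32 in cKO, and Guf1 lay near the floor throughout. The partners Tufm and Tsfm thus differed in opposite directions. Taco1, Mtif2 and Mtrf1l had the smallest adjusted p in WT and were higher at the 2-cell stage, Taco1 going from 1.08 and 1.03 to 15.5 and 12.3.

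Of 25 genes for assembly and rRNA modification, 12 were higher and 3 lower at the WT 2-cell stage, and 3 were higher and 3 lower in cKO than in WT 2-cell embryos. Mrm1, a methyltransferase of the large rRNA, went from the floor to 14.2 and 13.8 FPKM in WT, and Wbscr16 from the floor to 10.2 and 7.48, whereas Tfb1m, which methylates the small rRNA, fell from 169 and 157 to 21.5 and 21.3. Nsun4 was at 69.8 and 77.1 in WT and at 32.6 and 19.1 in cKO, and Mterfd2 at 1.65 and 2.44 and at 5.47 and 9.58. Ftsj2 differed by 0.27 at values of 1.00 to 1.41 FPKM.

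Of 13 genes of mitochondrial transcription and the mitochondrial genome, 8 were higher and 1 lower at the WT 2-cell stage, and 1, Tfam, was higher in cKO than in WT 2-cell embryos. Tfam, which packages mitochondrial DNA and starts its transcription, was at 4.25 and 4.24 FPKM in WT and at 13.9 and 8.97 in cKO, and Polrmt was at 3.08 and 2.97 and at 15.5 and 5.60 (adjusted p = 0.0566). Gabpa, an ETS factor, went from the floor to 91.2 and 89.2 FPKM in WT and to 138 and 131 in cKO, and Yy1 from 1.62 and 2.88 to 55.4 and 43.6 in WT. Tfb2m went from 20.2 and 25.4 to 143 and 147. The 3 genes were thus among the clear risers of the WT 2-cell stage.

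The 81 cytoplasmic ribosomal protein genes of the table give a second ribosome for comparison. Of these, 72 were higher and 0 lower at the WT 2-cell stage, 78 and 0 in cKO, and 55 and 0 in cKO against WT at the 2-cell stage, with medians of 2.81, 4.12 and 1.52. They rose nearly as a block, whereas the mitochondrial family was split in WT, and the difference between the 2 families was not tested. At the 2-cell stage their sum was 41460 and 33799 FPKM in WT and 77191 and 137501 in cKO.

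**Figure D5:**
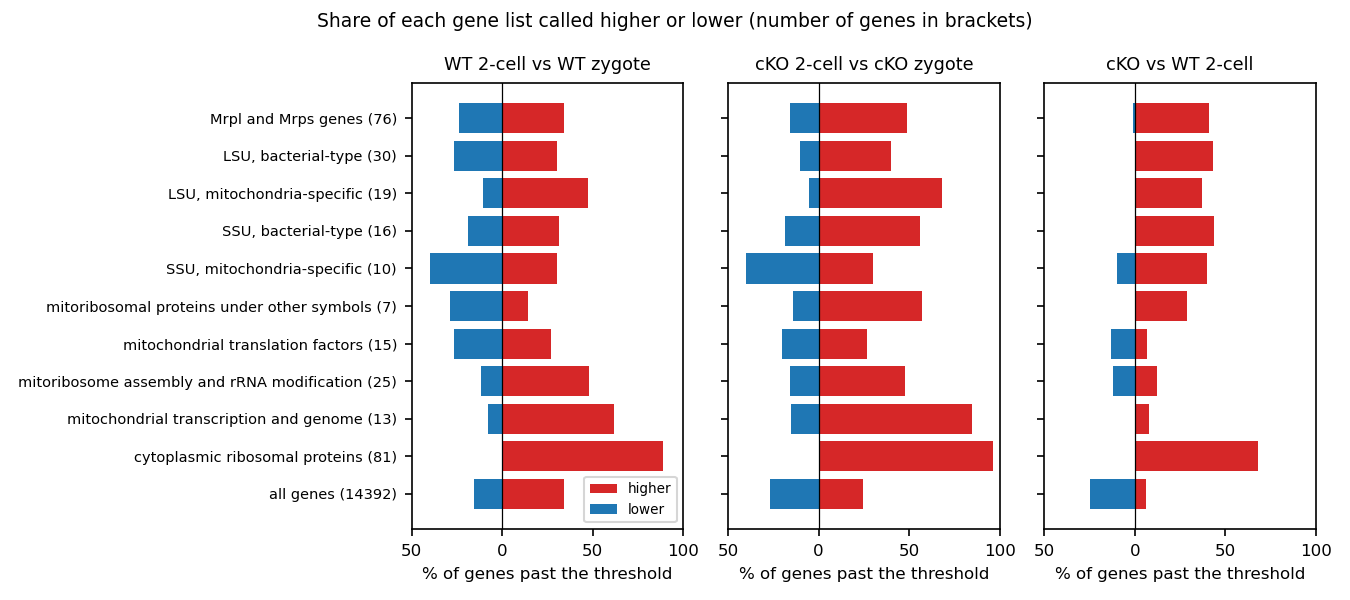
Share of the genes of each list called higher (red, to the right) or lower (blue, to the left) by limma in 3 comparisons, with the number of genes in brackets; LSU and SSU are the large and small mitochondrial subunits. In cKO against WT 2-cell embryos the 4 classes of Mrpl and Mrps genes and the cytoplasmic ribosomal proteins have more genes higher than lower, and all genes together have more lower than higher.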

How the data were processed

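RNA-seq was taken from 8 libraries of 10 embryos each (Smart-seq2, a kit that does not keep strand). The authors trimmed reads, mapped them to mm9 with TopHat2 2.1.1 and computed FPKM with Cufflinks 2.2.1; the deposited FPKM values have a floor of 1 and exclude genes under 1 in every sample. The gene annotation is not given in the sources used here. FPKM holds no counts, so depth is unknown, no counting error can be given, and precision rests on 2 libraries per group. The H2AK119ub1 ChIP samples were not analysed here.

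limma 3.58.1 (R 4.3.3) was fitted to log2(FPKM + 1) of all 14392 genes, with 4 groups in 1 model, 4 residual degrees of freedom, a trend in the prior and Benjamini-Hochberg adjustment at 0.05. Differences on this scale understate changes of low genes. The study's rule, a ratio of group means over 3, was applied as well. An exact two-sided permutation of 2 against 2 libraries cannot go below 0.333. The members and gene lists were chosen with earlier results of these data known. Genes were named by a fixed rule: the 5 with the smallest adjusted p per comparison and direction, 6 for the difference between genotypes, the 5 highest and 3 lowest levels, members at the floor of a group, Mrps18a, Mrps18b, Mrps18c and Mrps36, and 3 genes per other list and comparison; Mrps12, Mrps28 and the overlapping genes were added after their values were seen.

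Positions and transcript lengths come from GENCODE M1 (mm9), copies from BLAST 2.17.0, and promoters from RefSeq (GRCm38.p6). Alternatives were another pseudocount, a filter, other scalings, spreads per group, fits of the compared groups alone, a replicate block and leaving out each library. Scripts were tested on simulated data. Python 3.11.15 with pandas 2.3.3, numpy 2.4.6 and matplotlib 3.10.9 was used elsewhere.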

Additional observations from a re-analysis of the deposited data

Results flagged for a closer look

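The change from zygote to 2-cell stage differed between the genotypes in 10 members by the interaction term of the limma fit. The 6 with the smallest adjusted p differed, as cKO minus WT in log2(FPKM + 1), by 1.83 (Mrpl11), -1.76 (Mrps34), 1.50 (Mrpl40), 1.53 (Mrpl3), 2.52 (Mrps24) and 1.98 (Mrps31), with adjusted p from 0.0138 to 0.0306. With a spread of its own for each group 2 of the 10 passed, Mrpl11 and Mrps34. Leaving out any 1 zygote library left 0.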

How the results depend on the processing

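With 2 libraries per group, the calls lean on the spread pooled over groups, and FPKM values of 1 hide lower levels. No called difference of a member changed direction under any alternative. With a spread for each group, the members higher in cKO than in WT 2-cell embryos went from 31 to 2 and those with a difference between genotypes from 10 to 2. With only the groups compared, the counts were 0 higher and 0 lower for cKO against WT 2-cell embryos and 5 lower (12 in the full fit) for the cKO stage change; the difference between genotypes needs all groups. The single member lower in cKO 2-cell embryos became 2 with a filter at a mean FPKM of 3 and 2 with equal-sum scaling. Under the fold rule, the 20 members over 3-fold higher in cKO 2-cell embryos became 37 at a 2-fold threshold, 7 when every library had to pass and 33 after median-ratio scaling; the 1 lower became 2 at 2-fold, and the 7 lower in the cKO stage change became 4 when every library had to pass. Leaving out each library in turn, the ranges were 9 to 23 members lower in WT (18 in full), 6 to 16 lower in cKO, 11 to 34 higher and 1 to 5 lower in cKO against WT 2-cell embryos, 0 to 21 with a difference between genotypes, and 1 to 3 over 3-fold lower in cKO 2-cell embryos. Without WT zygote replicate 1 or WT 2-cell replicate 2, 9 and 10 members were lower in WT, and without cKO zygote replicate 1, 6 were lower in cKO; where a group was left with 1 library, that library was assumed to vary like the others. The cause of these shifts was not tested.

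Replicate numbers are shared between groups, and deviations of same-numbered libraries correlated at 0.50 between the zygote groups, at 0.11 between WT zygotes and WT 2-cell embryos and at -0.24 to 0.04 in the other 4 pairs of groups. Since not every pair was above 0.1, the numbers were not taken as pairs. This rule also left the zygote groups unpaired, although their correlation was 0.50. Over members, the median log2 difference of replicate 2 from replicate 1 was -0.29 in WT zygotes and -0.17 in cKO zygotes. It was -0.22 in WT and 0.19 in cKO 2-cell embryos. The median difference between the genotypes in zygotes was 0.13, so shifts between replicates were of similar or larger size. With a replicate block, 28 members were higher in cKO 2-cell embryos and 6 had a difference between genotypes. With the cKO 2-cell numbers crossed, chosen after seeing the data, the counts were 33 and 9.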
